A study of Homo sapiens with 4 samples.

Results

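The HOX clusters A to D hold the 39 HOX genes of the human genome, 11 in HOXA, 10 in HOXB, 9 in HOXC and 9 in HOXD. They were followed here through 2 lists of peaks from a series on H3K9me3, a histone mark of constitutive heterochromatin. The cells were U2OS, a long-established cell line from a human osteosarcoma. The clusters were taken as fixed intervals of hg19 with 100 kb of flank on either side, set by the position of the clusters. Every deposited peak that shared at least 1 bp with these intervals was a member. There were 163 such peaks among 326674 in list 1 and 104 among 264919 in list 2, on chromosomes 1 to 22 and X. The cores without their flanks ran on chromosome 7 from 27130001 to 27250000 (HOXA), on chromosome 17 from 46600001 to 46810000 (HOXB), on chromosome 12 from 54330001 to 54450000 (HOXC) and on chromosome 2 from 176950001 to 177060000 (HOXD). The cores made up 560 kb and the flanks 800 kb.

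Chromatin of formaldehyde-fixed U2OS cells was sequenced in 4 samples, 2 of them inputs made with no antibody and 2 pulled down with an Abcam antibody to H3K9me3. All carry the name U2OS-KRAB-IDR3-TCF3 in their titles, which the labels do not explain, and no treatment, time or clone is given. The input samples point to list 1 and the antibody samples to list 2, yet in both lists the peak names refer to an immunoprecipitation. Neither list was therefore given to a group, and the lists are set side by side with no test between them. Reads per sample cannot be had from peak lists, which leaves the depth unknown, and the values carry no error between replicates. Nothing in the files shows gene expression, so the cell type was not checked against markers, and no correction was made for DNA copy number in these cells.

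HOX genes encode homeodomain transcription factors that give the cells of an embryo their position along the body axis. In each cluster the genes stand in the order of their paralogue groups, which run from group 1 to group 13. Not every cluster has every group, and HOXC runs from HOXC4 to HOXC13. Genes of low group number are in general active earlier and nearer to the head. The clusters are known as classic targets of Polycomb repression, which acts through H3K27me3. H3K9me3 marks another kind of silent chromatin, which is bound by HP1 proteins and is found at satellites, transposons and zinc finger gene clusters.

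The 250 bases before the start are shown for 4 HOX genes that stand first or last in the gene order of their clusters. They were picked for the covered shares or peaks at their ends, and HOXC4, last in HOXC, is not shown. HOXA13 and HOXD13 stand at the ends of the less covered sides of their cores, and HOXD1 at the end of the more covered side of HOXD. HOXB1 stands at the end with the most enriched peak of the HOXB core. In HOXD the outermost bins of 10 kb differed little, with 52.5% and 6.89% covered in lists 1 and 2 at the HOXD13 end and 47.6% and 8.59% at the HOXD1 end. The sequences are from RefSeq on GRCh38.p14, written 5′ to 3′ on the strand of the gene, with each CG in capitals. CG reads the same on both strands. These GRCh38.p14 positions were not compared with the hg19 peaks.
HOXA13, chr7:27200092-27200341, minus strand: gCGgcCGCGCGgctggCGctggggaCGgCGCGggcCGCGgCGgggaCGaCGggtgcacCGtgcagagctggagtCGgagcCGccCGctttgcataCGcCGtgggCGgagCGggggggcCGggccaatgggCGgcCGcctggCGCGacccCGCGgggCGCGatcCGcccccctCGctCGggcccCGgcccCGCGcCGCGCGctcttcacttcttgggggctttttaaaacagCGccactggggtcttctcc
HOXD13, chr2:176092471-176092720, plus strand: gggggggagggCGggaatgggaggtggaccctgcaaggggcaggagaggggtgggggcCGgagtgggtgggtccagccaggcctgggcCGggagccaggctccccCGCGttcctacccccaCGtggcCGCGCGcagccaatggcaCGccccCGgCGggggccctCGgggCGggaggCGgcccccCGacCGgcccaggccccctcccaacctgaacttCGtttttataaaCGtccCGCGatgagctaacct
HOXD1, chr2:176188418-176188667, plus strand: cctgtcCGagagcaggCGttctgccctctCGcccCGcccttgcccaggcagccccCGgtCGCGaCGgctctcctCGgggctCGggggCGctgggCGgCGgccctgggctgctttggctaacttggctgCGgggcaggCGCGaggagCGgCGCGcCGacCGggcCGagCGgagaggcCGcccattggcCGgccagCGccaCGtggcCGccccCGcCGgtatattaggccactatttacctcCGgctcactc
HOXB1, chr17:48531012-48531261, minus strand: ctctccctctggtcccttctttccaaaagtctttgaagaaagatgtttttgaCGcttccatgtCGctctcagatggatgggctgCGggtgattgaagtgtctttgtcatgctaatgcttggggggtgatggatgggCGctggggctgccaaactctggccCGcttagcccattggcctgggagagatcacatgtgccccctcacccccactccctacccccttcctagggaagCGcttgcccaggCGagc

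HOXA13 held 40 CG in this stretch, HOXD1 held 31, HOXD13 held 21 and HOXB1 held 7. HOXC4, which is not shown, held 14. Promoters were listed for 20 of the 39 HOX genes. Among their 26 different sequences 20 held at least 10 CG, or 76.9%, and the median was 19.5. Of the 26, 16 came from HOXA, 8 from HOXD, 1 from HOXB and 1 from HOXC, so these values mostly describe HOXA and HOXD. Of all 34788 different promoter sequences of the same length 52.1% held at least 10 CG, with a median of 11. The lowest HOX value, 0, belonged to 1 of the 7 listed starts of HOXA3. HOXD13 and HOXD1, from opposite ends of HOXD, both lay above the median of all promoters.

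Within the clusters the peaks of both lists were sparse over HOXA and HOXC, patchy over HOXB, and dense over one side of HOXD. In list 1 the covered share, which is the share of base pairs inside a peak, was 16% in the HOXA core, 28.6% in HOXB, 11.4% in HOXC and 47.4% in HOXD. In list 2 it was 3.05%, 11.3%, 0.911% and 26.5%. The flanks of the same clusters were covered 56.0%, 52.6%, 38.2% and 52.6% in list 1 and 31.0%, 23.5%, 22% and 29.6% in list 2. All 4 cores thus lay below their flanks in both lists. Core minus flanks was -39.95, -24.0, -26.8 and -5.28 percentage points in list 1 and -28.0, -12.2, -21.1 and -3.15 points in list 2. Summed over the clusters, cores were covered 25.9% against 49.8% of the flanks in list 1, and 10.3% against 26.6% in list 2.

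These orders depended on which peaks were kept. List 1 was cut back to peaks at least as strong, by −log10 p, as the weakest peak of list 2. This left 24 of the 163 HOX peaks of list 1. The share of all list 1 peaks left by this cut was not counted, so the number is not set against the genome. The summed cores were then covered 15.5% against 9.35% of the flanks, so that the order turned. It turned by cluster in HOXB, HOXC and HOXD, where core minus flanks became 6.02, 1.18 and 29.7 percentage points. The HOXC core kept only peaks of 3429 and 462 bp, and was covered 3.24% against 2.06% of its flanks. Most of the length left in the HOXD core was 1 peak of 30549 bp. HOXA kept its order, with 0.233% of the core covered against 14.1% of the flanks. The sign for HOXD also turned in both lists with flanks of 200 kb, a core widened by 20 kb, peaks above the median fold or base pairs in both lists, so no direction is given for HOXD as a whole.

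**Figure D1:**
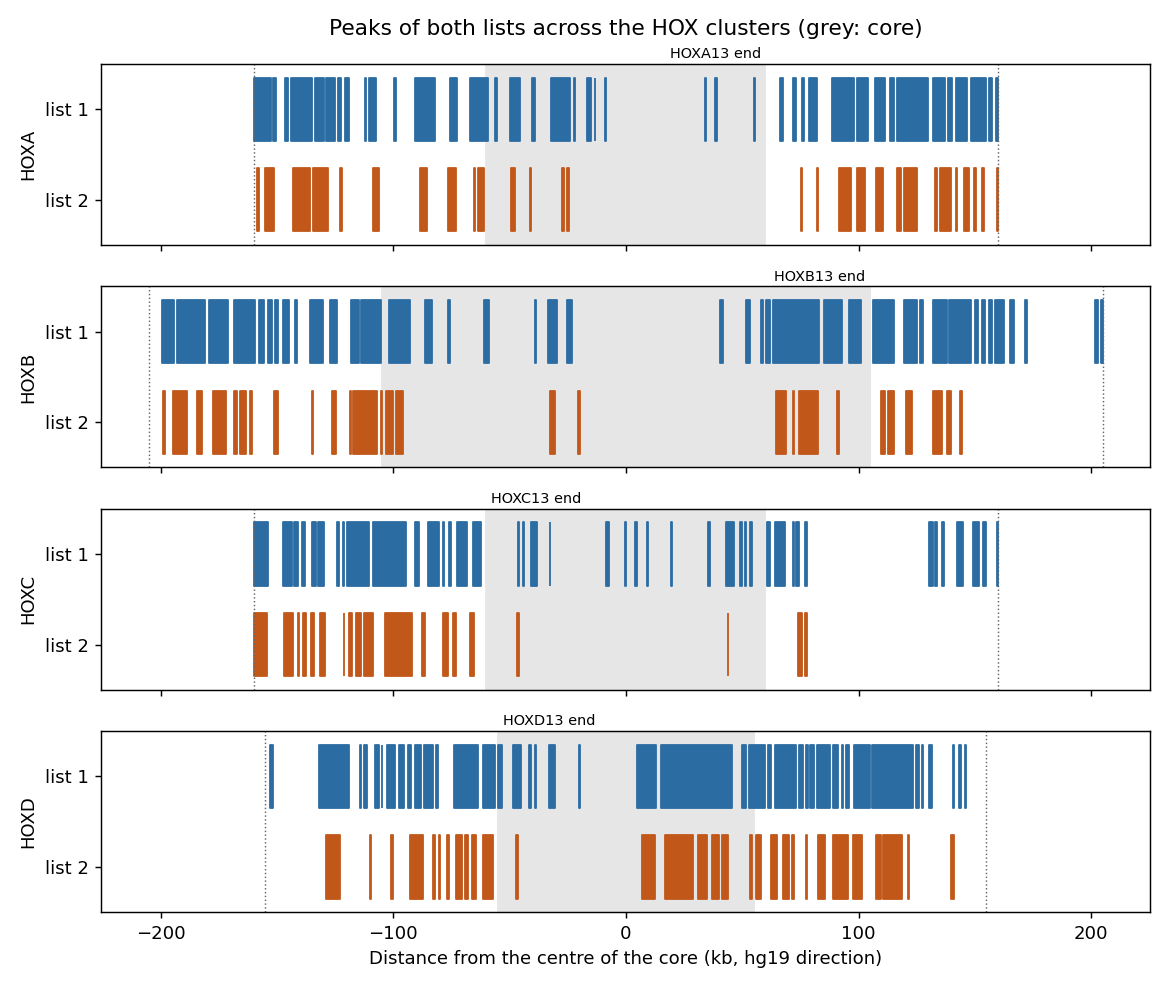
Peaks of list 1 (blue) and list 2 (orange) along each HOX cluster, with the distance from the centre of the core in kb on the x axis, the core in grey and the outer ends of the flanks as dotted lines. Peaks thin out inside the HOXA, HOXB and HOXC cores, and the HOXD core is sparse on its HOXD13 side and filled on the other.

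By the gene order of the RefSeq table, the upper end of the HOXA core holds HOXA10, HOXA11 and HOXA13, which act in the limb and the urogenital tract. On the lower side, from 27130001 to 27190000, list 1 covered 30.1% and list 2 covered 6.11%. On the HOXA13 side, from 27190001 to 27250000, list 1 covered 2.02% with 3 peaks and list 2 covered 0% with 0 peaks. The bare stretch of list 2 ran from 27165541 to 27265222, which is 99.7 kb and reached into the upper flank. List 1 had a bare stretch of 42.8 kb inside it, from 27181453 to 27224203. The core thus held its peaks on the lower side in list 2, and most of its covered length there in list 1.

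List 2 held 4 peaks in the HOXA core. The widest and most enriched ran from 27140548 to 27142531, at 1984 bp and a fold of 2.15. The fold is the authors' own value over the peak caller's background. Another ran from 27148773 to 27149140 at 1.90, which is the lowest fold list 2 contains. The remaining peaks, from 27162682 to 27163258 at 2.08 and from 27164807 to 27165540 at 1.90, closed the covered part. List 1 held 12 peaks, the widest from 27157772 to 27165990 at 8219 bp and a fold of 1.69. Its most enriched peak, from 27245076 to 27245354, had a fold of 2.13 but was only 279 bp wide, and no peak of list 2 overlapped it. In the flanks of HOXA, peaks reached 13401 bp in list 1 and 6988 bp in list 2.

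The HOXC core had the lowest covered share of the 4 in both lists as deposited. List 2 held 2 peaks in 120 kb, from 54343073 to 54343873 at a fold of 1.98 and from 54433723 to 54434014 at 1.90. Between them lay a bare stretch of 89.8 kb. List 1 held 14 peaks, of which 7 had the lowest fold of that list, 1.44, and the median width was 596 bp. The widest, from 54433185 to 54436613, measured 3429 bp at a fold of 1.89. The highest fold, 2.10, belonged to a peak of 462 bp from 54441058 to 54441519, again with no partner in list 2. HOXC13, known for its part in hair and nail formation, stands at the lower end, and HOXC4, HOXC5 and HOXC6, which share a start in the gene table, stand at the upper end. The side of HOXC13 was covered 8.14% and 1.34%, the other side 14.6% and 0.487%, so the lists ordered the sides differently.

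The flanks of HOXC were unlike each other. The lower flank, beyond HOXC13, was covered 58.7% in list 1 and 41.5% in list 2, with peaks up to 14183 and 11926 bp wide. The upper flank, towards SMUG1, a DNA glycosylase gene, was covered 17.7% and 2.56%. The HOXC core at 11.4% and 0.911% was therefore close to its upper flank and far below its lower flank. Of the 10 bins of 10 kb in the upper flank, 5 held no peak base in list 1 and 9 held none in list 2.

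The HOXB core held most of its covered length towards its ends, with a bare stretch in the middle, though list 2 had no peak base in the outermost bin on the HOXB13 side. At its HOXB1 end, list 1 had a peak of 9368 bp from 46602965 to 46612332 with a fold of 2.13, its most enriched peak in this core. List 2 had a peak from 46606040 to 46609052 with a fold of 3.50 and a −log10 q of 2.16, or a q of 0.00691. Only 468 peaks of list 2, 0.177%, had as high a fold, and it was the only peak of the HOX cores in either list with −log10 q of at least 2. HOXB1, a gene of hindbrain and facial nerve development, is the first gene at this end by order, but its hg19 position was not used here, so the peak is not assigned to it.

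At the other end, which holds HOXB13, a gene of the prostate and the posterior body, list 1 had its widest HOXB peak, from 46768133 to 46788084, at 19952 bp and a fold of 1.92. List 2 covered parts of the same stretch with peaks from 46769342 to 46773981 at a fold of 2.66 and from 46779330 to 46787479 at 2.31. Between the ends, both lists were bare from 46685080 to 46745660, and the bare stretches there measured 63.7 kb in list 1 and 84.3 kb in list 2. List 2 had another of 63.1 kb from 46609053 to 46672170. On the side of HOXB13 list 1 covered 36.3% and list 2 covered 14%, against 20.9% and 8.60% on the side of HOXB1, the reverse of HOXA. HOXB9 and HOXB13 are neighbours in the gene order, with no other HOX gene between them.

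HOXD was densely covered on 1 side and sparsely on the other. On the side of HOXD13, from 176950001 to 177005000, peaks covered 17.1% in list 1 and 1.25% in list 2, the latter with 1 peak. On the other side, from 177005001 to 177060000, they covered 77.6% and 51.7%. HOXD13, HOXD12, HOXD11 and HOXD10, genes of digit and limb formation, come first in the gene order, followed by HOXD9, HOXD8, HOXD4, HOXD3 and HOXD1. List 1 was bare for 24.5 kb from 176985419 to 177009920 and list 2 for 53.3 kb from 176958511 to 177011833. In the next 40 kb, from 177010001 to 177050000, the bins of 10 kb were covered 80.9%, 97.8%, 100% and 100% in list 1 and 57.1%, 81.8%, 82.2% and 54.8% in list 2. The 5 bins before them, from 176960001 on, were covered at most 22.8% in list 1 and 0% in list 2. The outermost bins of the core held more than these, with 52.5% in list 1 and 6.89% in list 2 at the HOXD13 end, and 47.6% and 8.59% at the other.

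The widest peak of all HOX cores lay in this covered part of HOXD. It ran from 177020221 to 177050769 in list 1, at 30549 bp and a fold of 1.98. Of the peaks of list 1, 1.12% were as wide. List 2 broke the same stretch into 4 peaks, of which the widest and most enriched ran from 177021818 to 177034043, at 12226 bp, a fold of 2.95 and a q of 0.0422. The other 3 had folds of 2.54, 2.29 and 2.54. With list 1 cut back as above, the HOXD core was covered 36.9% against 7.19% of its flanks. All 7 peaks of list 2 in the HOXD core overlapped list 1, and 29.1 kb were covered in both lists.

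**Figure D2:**
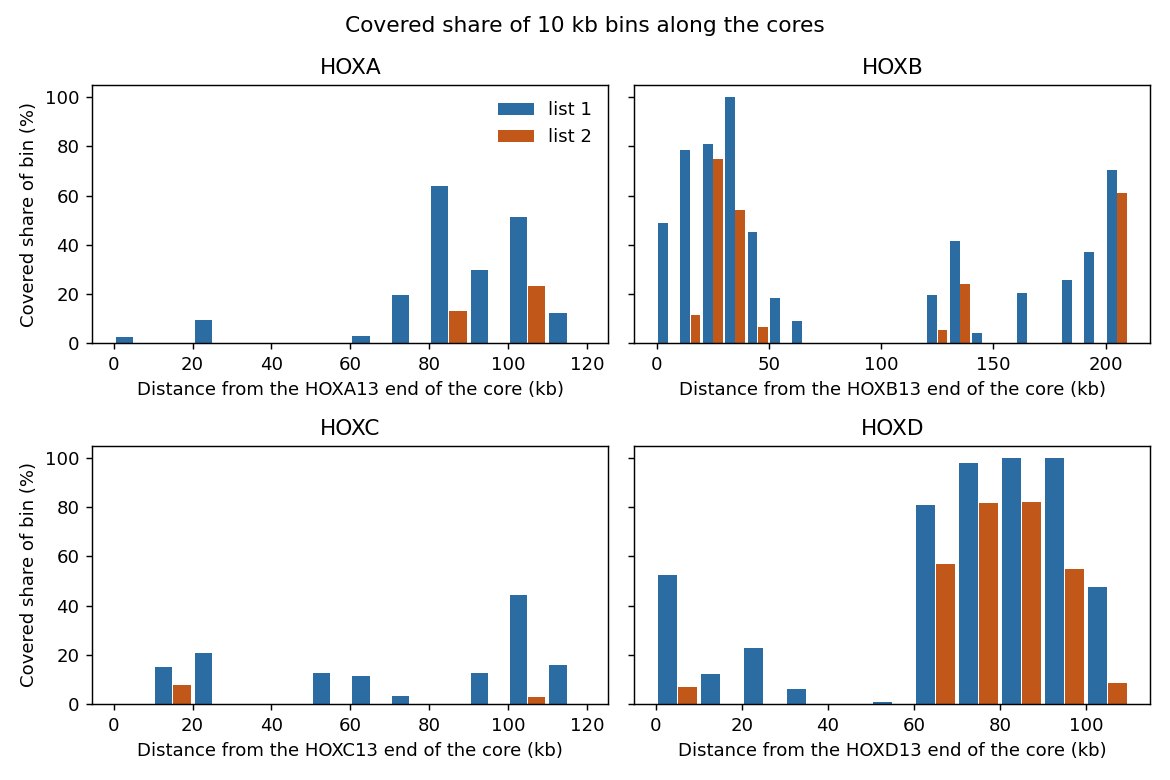
Covered share in % of each 10 kb bin of the HOX cores, for list 1 (blue) and list 2 (orange), against the distance in kb from the core end that holds the group 13 gene. Bars are at or near 0 next to that end in HOXA, are bare in the middle of HOXB and stay low in HOXC. In HOXD they are lowest between 10 and 60 kb from that end and then reach 100% in list 1 and 82.2% in list 2, before they drop in the last bin.

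Bins of 10 kb set the clusters against the genome. In list 1, 16 of the 56 core bins held no peak base, or 28.6% (Wilson 95% interval 18.4 to 41.5%), against 11.3% of 283647 bins of the genome. In list 2, 39 core bins held none, or 69.6% (56.7 to 80.1%), against 30.0%. At least 50% of the bin was covered in 11 core bins of list 1, or 19.6% (11.3 to 31.8%), against 48.4%, and in 7 of list 2, or 12.5% (6.19 to 23.6%), against 22.3%. Neighbouring bins are not independent, and the intervals cover the counting of bins only. Flank bins lay nearer to the genome, with 8 of 80 bare in list 1 (10.0%) and 23 of 80 in list 2 (28.8%), and 46 (57.5%) and 17 (21.3%) covered by at least 50%.

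All 16 bare core bins of list 1 were bare in list 2 as well, 4 in HOXA, 7 in HOXB, 4 in HOXC and 1 in HOXD, while 23 further core bins were bare in list 2 alone. Bare in both lists were thus 28.6% of the core bins, against 10.7% of the bins of the genome. Such nesting was common in the genome too, where 30374 of the 31926 bare bins of list 1 were bare in both lists. List 2 had 84982 bare bins there. All 7 core bins that list 2 covered by at least 50% reached 50% in list 1 too, 3 in HOXB and 4 in HOXD, which is 12.5% against 21.9% of the genome. Of the 63318 genome bins that list 2 covered by at least 50%, 62106 reached this in both lists. Over the 56 core bins Spearman's rho of the covered shares was 0.775, and over the 80 flank bins 0.792, a description of bins that share their clusters and, in unknown part, their processing.

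A core covered at most 0.5 times as much as its flanks was not rare in the genome. The layout of a core with flanks of 100 kb was moved along the chromosomes in steps of 100 kb. With a core of 120 kb, the width of HOXA and HOXC, 8.70% of the placements in list 1 and 16.5% in list 2 were that low. HOXA, at 0.287 and 0.0984 times its flanks, and HOXC, at 0.298 and 0.0413 times, met this in both lists. With the 210 kb of HOXB the shares of placements were 6.62% and 13.2%, and HOXB, at 0.544 and 0.480 times, met it in list 2 only. With the 110 kb of HOXD they were 9.16% and 17.1%, and HOXD, at 0.90 and 0.894 times, met it in neither list. Long bare stretches made up a larger share of the gaps at the cores than of all gaps, in list 1 through 1 gap only. A fixed interval touches long gaps more readily than short ones, so the shares are not strictly alike. Gaps of at least 50 kb between neighbouring peaks numbered 1 of the 51 gaps that touched a core in list 1, where they made up 0.384% of all gaps, and 5 of 25 in list 2, against 1.94%.

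The surroundings differed between the clusters as well. From 100 to 500 kb outside the core, list 1 covered 52.7% around HOXA, 28.6% around HOXB, 31.0% around HOXC and 50.7% around HOXD, and list 2 covered 25.5%, 13.2%, 14.2% and 26.6%. The HOXB core, at 28.6% and 11.3%, was thus level with this wider zone in list 1 and slightly below it in list 2. Chromosome 17 was covered 38.0% and 20.3%. Both flanks of HOXB exceeded this in list 1, and in list 2 the lower flank did while the upper flank, at 13%, lay below it. HOXA and HOXC lay below the wider zone in both lists. Chromosomes 7, 12 and 2 were covered 49.9%, 46.90% and 58.1% in list 1 and 27.9%, 25.4% and 36.4% in list 2, leaving out the peak-free stretches.

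**Figure D3:**
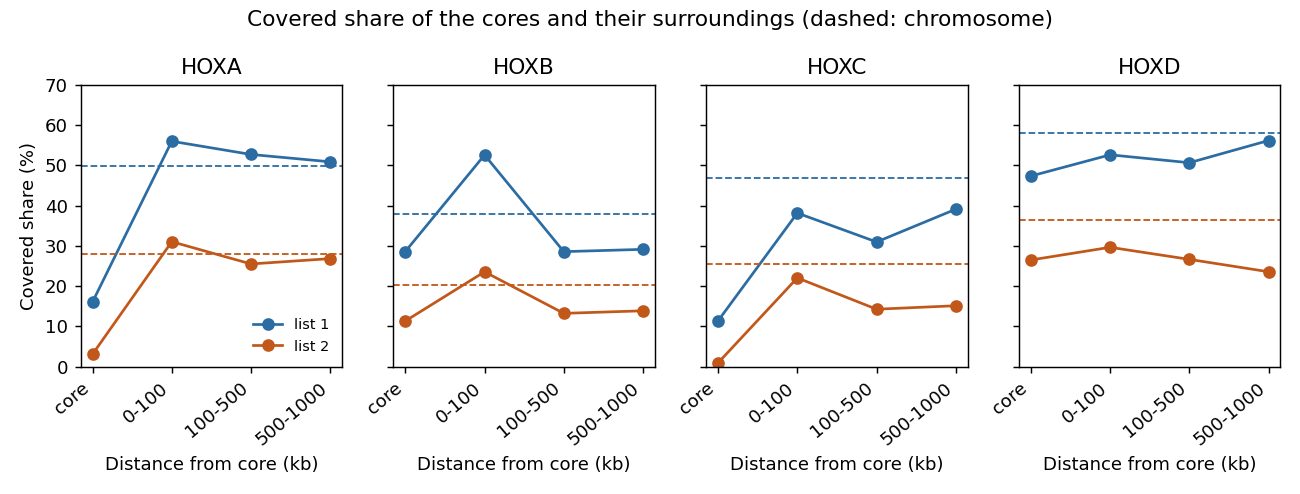
Covered share in % of the core and of 3 distance zones on both sides of it, in kb, for list 1 (blue) and list 2 (orange), with the share of the chromosome as a dashed line. HOXA and HOXC drop at the core, HOXB rises only in the flanks, and HOXD stays between 47.4 and 56.2% in list 1.

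By gene order alone, 3 clusters have an HP1 gene among the 3 nearest protein-coding genes on 1 side that carry a name and are no HOX gene. These are CBX3 beyond SKAP2 and SNX10 at HOXA, CBX1 beyond SKAP1 and SNX11 at HOXB, and CBX5 beyond SMUG1 at HOXC. CBX5, CBX3 and CBX1 encode the HP1 proteins alpha, gamma and beta, which bind H3K9me3. Their distance from the flanks was not used, and a link to the covered shares was not tested. HOXD has EVX2 and LNPK on the side of HOXD13 and MTX2 on the side of HOXD1. The lower flank of HOXD was covered 48.1% and 25.9% and the upper flank 57.2% and 33.4%, so the sparse side of the core faced the less covered flank. At HOXB the lower flank was covered 62.9% and 34.1% and the upper flank, towards TTLL6, 42.3% and 13%. At HOXA they differed less, with 51.2% and 32.0% below and 60.8% and 30.1% above.

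The flanks held wide peaks and, at HOXB and HOXC, long bare stretches of their own. The longest bare stretch inside the flanks of HOXA was 8.02 kb in list 1 and 17.9 kb in list 2, far shorter than in its core. At HOXC it lay in the upper flank, from 54467644 to 54520113 in list 1 (52.5 kb) and from 54467783 to the end of the flank in list 2 (82.2 kb). In list 1 it was thus longer than any in the HOXC core. At HOXB it also lay in the upper flank, at 29.3 kb in list 1 and 60.7 kb in list 2, and at HOXD in the lower flank, at 19.99 kb and 26.1 kb.

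The widest flank peaks of list 1 measured 13401 bp at HOXA (27306451 to 27319851, fold 2.14), 12010 bp at HOXB (46512167 to 46524176, fold 1.71), 14183 bp at HOXC (54281234 to 54295416, fold 1.67) and 17496 bp at HOXD (177110978 to 177128473, fold 1.83). All were narrower than the widest core peaks of HOXB and HOXD and wider than those of HOXA and HOXC. In list 2 they measured 6988, 10041, 11926 and 8103 bp. The most enriched flank peaks of list 2 had folds of 2.57 at HOXA (27113613 to 27117097), 3.09 at HOXB, 2.43 at HOXC (54242919 to 54246991) and 2.49 at HOXD (177126234 to 177126644). In list 1 the highest folds were 2.14, 1.93, 2.06 and 1.88, so no flank peak of HOXB or HOXD was as enriched as the strongest core peak of the same list.

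Pooled over the clusters, peaks in the cores had a lower median width than in the flanks, but this did not hold in each cluster. In list 1 the 50 core peaks had a median width of 1186 bp against 1829 bp for 116 flank peaks, with median folds of 1.57 and 1.66. In list 2 the 22 core peaks had a median width of 1568 bp against 1822 bp for 83 flank peaks, with median folds of 2.18 and 2.13. In HOXD core peaks had the higher median width, 2064 against 1620 bp in list 1 and 2919 against 1971 bp in list 2, as they did in HOXB in list 2, with 2400 against 1815 bp. Peaks across a core border, 3 in list 1 and 1 in list 2, were counted on both sides. Of the core peaks 26% in list 1 and 18.2% in list 2 stood at the lowest fold of their list, as did 18.1% and 15.6% of all peaks.

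A q at or under 0.05 was reached by 0 of the 163 HOX peaks of list 1, where 0.190% of all peaks did, and by 3 of 104 in list 2, where 2.07% did. These 3 were the peak at the HOXB1 end of HOXB, the peak of 12226 bp in HOXD and, in the upper flank of HOXB, a peak of 1630 bp from 46814695 to 46816324 with a fold of 3.09. The account of covered shares above therefore rests on peaks that mostly did not pass such a limit.

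**Figure D4:**
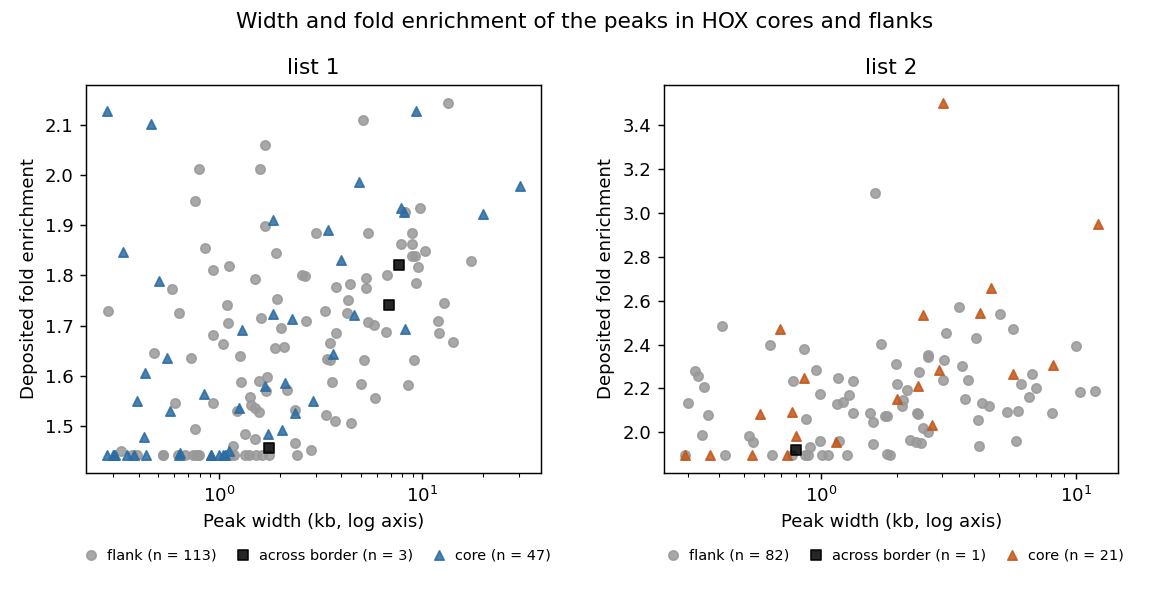
Width in kb (log axis) and deposited fold enrichment of the HOX peaks in list 1 (left) and list 2 (right), with core peaks as triangles, flank peaks as grey circles and peaks across a core border as black squares. Among the HOX peaks shown, the cores hold the widest of list 1, at 30.5 kb, and the most enriched of list 2, at a fold of 3.50. Beside them stand many narrow peaks at the lowest fold.

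Most HOX peaks of list 2 had a counterpart in list 1, as did 90.1% of all its peaks, while 50.8% of all peaks of list 1 had one in list 2. In the cores 19 of 22 peaks of list 2 (86.4%) overlapped a peak of list 1 by 1 bp or more, and 13 of 50 peaks of list 1 (26%) overlapped a peak of list 2. In the flanks these were 74 of 83 (89.2%) and 62 of 116 (53.4%). Of the covered length of list 2 in the cores 95.5% was also covered in list 1, and of that of list 1 37.9% was covered in list 2. In the flanks these shares were 81.8% and 43.6%. The same shares over the genome are not given, so no trait of the cores is read from them. By cluster, 3 of 12 core peaks of list 1 had a partner in HOXA, 4 of 14 in HOXB, 2 of 14 in HOXC and 4 of 10 in HOXD.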

How the data were processed

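Per the submitters' processing notes, the tools were MACS2 2.2.7.1, Bowtie2 2.5.0, Trim Galore 0.6.7 and bcl2fastq 2.17, and the build was hg19. The peak cutoff, any control and any pooling were all not given in the sources used here. Each deposited list gives for each peak a fold enrichment (a ratio), a −log10 p, a −log10 q and a display score, all the authors' values. The score was not used.

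Covered shares were computed from merged peaks, with peaks clipped at the borders of a region, and coordinates are 1-based. Overlap needed 1 bp. Genome bins in stretches of at least 1 Mb without a peak in both lists were left out. The RefSeq gene table on GRCh38.p14 served for names and gene order only, and all 39 HOX genes matched. Values are therefore given per cluster and stretch, not per gene. One item is not reported here. The rule for named items took the HOX genes, the 3 nearest named genes on either side and, per cluster and list, the widest and most enriched peaks and the longest bare stretches. Members and rules were chosen with earlier results of these data known. As neither list could be assigned to samples, there was no test. A difference under an alternative counted as turned when its sign changed. Otherwise a value counted as moved when it shifted by more than the Wilson intervals allow, over 10 kb bins or, for shared peaks, over peaks. No correction was made for copy number, mappability or base composition. Alternatives varied the flanks, core, peak filters, overlap and bin width. Covered lengths were tested on simulated data, with 0 wrong of 300 intervals in each of 20 sets. Software was matplotlib 3.10.9, scipy 1.17.1, pandas 2.3.3 and numpy 2.4.6 under Python 3.11.15.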

Additional observations from a re-analysis of the deposited data

How the results depend on the processing

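Of 75 alternative values of the difference between core and flanks, 61 kept the sign as reported and 14 turned. For HOXD the difference in percentage points became 7.29 in list 1 and 5.38 in list 2 with flanks of 200 kb, 9.36 and 5.79 with a core widened by 20 kb, 3.8 and 9.86 with peaks above the median fold, and 2.48 in both with base pairs in both lists. With list 1 cut back to peaks as strong by −log10 p as the weakest of list 2 it was 6.02 for HOXB, 1.18 for HOXC, 29.7 for HOXD and 6.15 for the 4 clusters together. With −log10 q of at least 2, a single HOX peak was left, in HOXB of list 2, which gave 1.43 for HOXB and 0.538 for the 4 clusters, and 8 values could not be had. The cause of these turns was not tested. Leaving out 1 cluster at a time gave summed differences of -28.3 to -19.2 points in list 1 and -19.2 to -12.8 in list 2. Of all HOX peaks 44.8% in list 1 and 89.4% in list 2 had a partner, against 14.1% and 22.1% with a reciprocal overlap of 50%, and 75% and 27.9% with list 1 cut back. For these alternatives the shares over all peaks were not computed, so no trait of HOX peaks is read from them. Bare core bins were 11.1% in list 1 and 55.6% in list 2 with bins of 20 kb. The genome was not cut into bins of 20 kb, so these shares cannot be set against the genome shares for 10 kb. With peak-free stretches counted, chosen after seeing the data, 17% and 34.5% of genome bins were bare. No paired analysis was possible because neither list was assigned to a sample. Few peaks passed a strict q, and the unknown depth gives no interval.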
